A study of Mus musculus with 6 samples.

Results

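The genes described here encode the proteins of tight, adherens and gap junctions and of desmosomes. They were chosen by symbol alone as the protein-coding mouse genes named Cldn, Tjp, Marveld, Dsg, Dsc, Pkp, Gja, Gjb or Gjc with a number, together with Ocln, F11r, Cgn, Cdh1, Ctnna1, Ctnnb1, Ctnnd1, Jup, Dsp and Epcam. The annotation holds 68 such genes, of which 63 were among the 24190 genes of the count table and 47 were among the 14692 genes with enough counts to be tested. They comprise 23 claudins, 9 other tight junction genes, 4 adherens junction genes, 15 desmosome genes, 16 connexin genes and Epcam. Expression was measured by RNA sequencing of poly(A)-selected RNA from parental MTO54 organoids, a line of mouse tumor organoids (MTOs) grown from colorectal cancer cells of the AKP genotype. All samples were of this 1 line and were seeded as single cells in BME, a basement membrane extract. They were left for 2 days in complete stem cell medium and then kept for 2 days either in the same medium (control, 3 samples) or in medium with Folfiri (3 samples), a combination of 5FU, given as 50 μg/μl in the sources, with 100 nM of SN38, the active form of irinotecan. The labels and methods give this length of treatment, whereas a figure legend of the study gives a longer one. The study used this comparison to ask what chemotherapy does to gene expression in MTOs.

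Epithelial cells are joined by several kinds of contact. Tight junctions close the space between cells near their apex, with claudins and occludin as membrane proteins and the zonula occludens proteins as scaffold, and the choice of claudins sets how leaky the barrier is and to which ions. Adherens junctions and desmosomes hold cells together through cadherins, which are coupled by catenins to actin and by plakoglobin, plakophilins and desmoplakin to keratin filaments, and gap junctions are channels of connexins that let small molecules pass between neighbours.

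The count totals lay between 22103591 and 30098210 per sample. Levels are CPM, counts scaled to library size, after TMM normalization, and are listed for replicates 1, 2 and 3 in that order. A gene was called higher or lower when the quasi-likelihood test of edgeR gave a p under 0.05 after Benjamini-Hochberg adjustment over all tested genes, and log2 fold changes are Folfiri over control. Scaling by library totals alone moved the median over all genes from 0.02 to 0.30 on the log2 scale, so calls on small changes depend on the scaling, which is given beside the junction genes of the selection. For genes of the other lists below, values under other scalings are not given, and small changes among them carry the same limit. Mitochondrial transcripts took 2.09 to 2.36% of the counts in controls and 3.95 to 4.44% after Folfiri. Control replicate 1 stood apart from the other controls, with a chi-square per degree of freedom of 18.25 and 17.16 against them in place of 3.155 between them, and Folfiri replicate 3 did so to a lesser degree, with 9.043 and 8.742 in place of 2.819. The epithelial markers Krt8, Krt18, Krt19, Krt20, Vil1 and Cdx2 summed to 3996 to 4600 CPM in controls and 3163 to 3441 CPM after Folfiri. Of these 6, 3 were called lower, against 38.8% of all tested genes. Because these are bulk samples, fewer cells of a type and less RNA per cell cannot be told apart. The study calls its 3 samples per condition biological replicates without saying in what they were separate, so p values measure the spread between these samples.

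Junction genes moved in both directions after Folfiri. Of the 47 tested, 37 (78.7%) were called, against 79.1% of all tested genes. Higher expression was called for 18, against 40.3% of all genes, and lower expression for 19, against 38.8%. A call with a log2 fold change of 1 or more in size was made for 19 members (40.4%), 10 higher and 9 lower, against 36.3% of all genes. The control and Folfiri samples did not overlap for 40 members (85.1%), against 81.4% of all genes. The median log2 fold change of the members was 0.08 and their median absolute log2 fold change was 0.75, beside 0.02 and 0.73 for all genes. By these counts junction genes as a whole were called about as often as other genes. Of the 5 members that the count table did not list, Cldn5, Cldn13, Cldn16 and Cldn22 are claudins and Gja10 is a connexin.

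**Figure D1:**
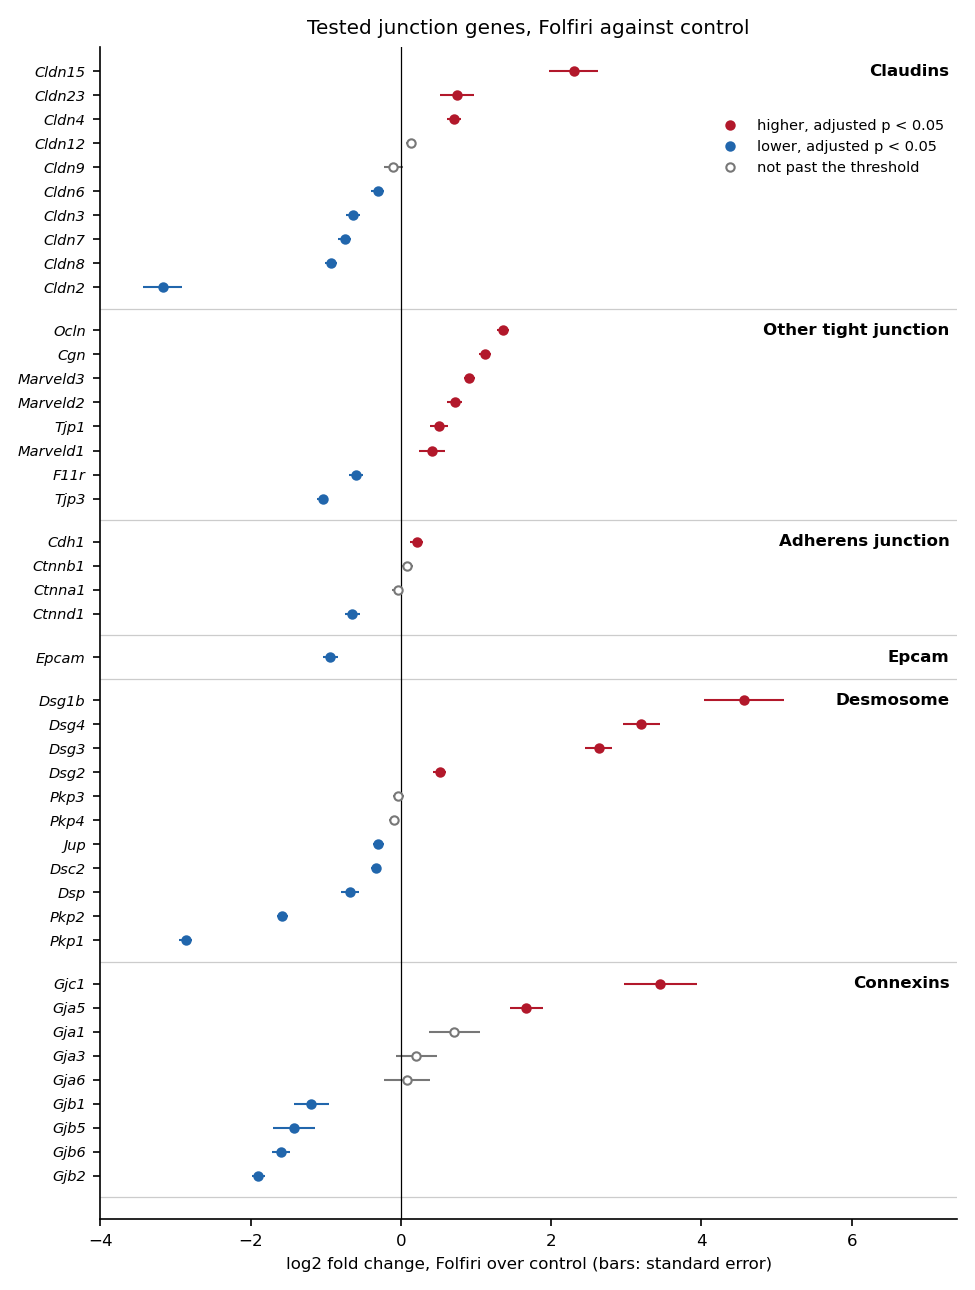
Log2 fold change, Folfiri over control, of 43 tested junction genes, grouped by junction type, with bars for the standard error. Filled red points were called higher (16), filled blue points lower (18), and open points missed the threshold (9). Dsg1b, Gjc1, Dsg4 and Dsg3 have the highest values drawn and Cldn2 and Pkp1 the lowest.

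**Figure D2:**
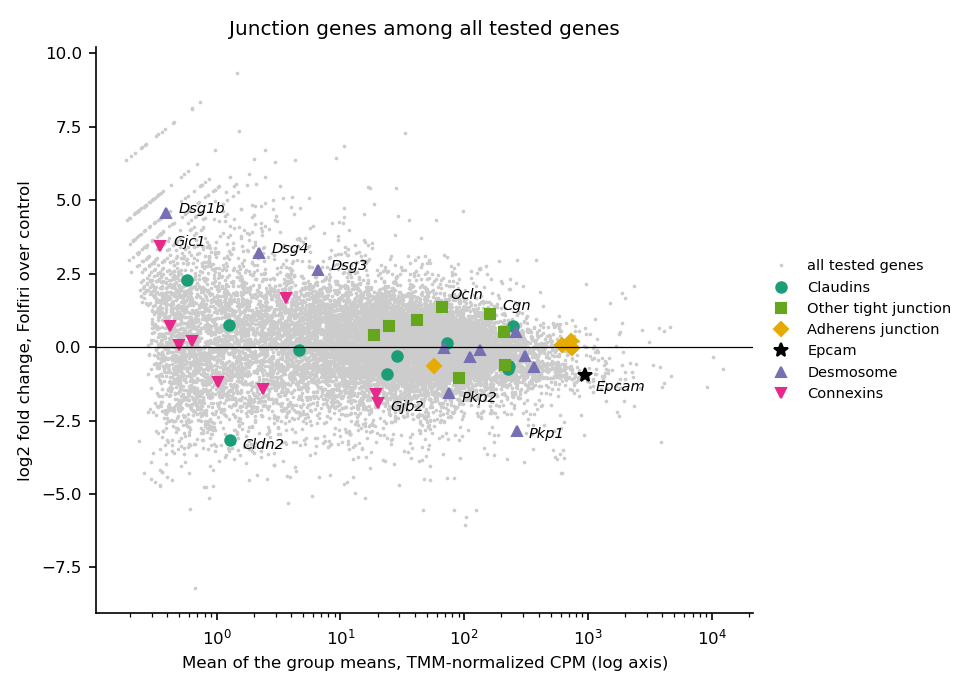
Log2 fold change, Folfiri over control, against the mean of the group means in TMM-normalized CPM (log axis) for all 14692 tested genes (grey) and for 43 junction genes (coloured by junction type). The junction genes lie within the cloud of all genes, with Dsg1b, Gjc1, Dsg4, Dsg3 and Pkp1 towards its edges.

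Among the 9 tight junction genes other than claudins, 6 rose, 2 fell and 1 missed the threshold, with a median log2 fold change of 0.50. Ocln (ENSMUSG00000021638, GRCm38 chromosome 13, 100496507 to 100552718) encodes occludin, the first membrane protein described in tight junctions. Its level was 38.2, 37.8 and 36.4 CPM in controls and 92.6, 104 and 91.6 CPM after Folfiri. All Folfiri samples lay far above all controls, and the mean went from 37.4 ± 0.979 to 95.9 ± 6.59 CPM (SD, n = 3), which was 2.56-fold (log2 fold change 1.36, SE 0.0772, edgeR adjusted p = 9.17e-08). Marveld2 lies next to Ocln on the same strand, from 100595957 to 100616971, and encodes tricellulin, which is found where 3 cells meet. Marveld2 was measured at 20.7, 16.4 and 18.5 CPM in controls and 28.2, 31.2 and 32.0 CPM after Folfiri, again without overlap (log2 fold change 0.72, edgeR adjusted p = 7.35e-05). The related Marveld3 rose from 30.1, 28.8 and 27.1 CPM to 54.4, 53.9 and 53.7 CPM (log2 fold change 0.91, edgeR adjusted p = 1.13e-06). Its replicates were close together in both groups. Marveld1 was called as well, at 21.4, 14.4 and 12.4 CPM against 23.2, 21.9 and 19.4 CPM (log2 fold change 0.41, edgeR adjusted p = 0.0486). Here control replicate 1 lay inside the Folfiri range, and the call was lost without any 1 of control replicates 2 and 3 or of Folfiri replicates 1, 2 and 3.

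The cytoplasmic side of the tight junction changed unevenly. Cgn (ENSMUSG00000068876) encodes cingulin, which links the junction to the actomyosin belt, and it rose from 95, 100.3 and 109 CPM to 212, 223 and 225 CPM. The means of 101 ± 6.99 and 220.1 ± 7.03 CPM (SD, n = 3) were 2.17-fold apart (log2 fold change 1.12, SE 0.0742, edgeR adjusted p = 2.56e-07), and no Folfiri sample came near a control. The zonula occludens scaffolds Tjp1 and Tjp3 went different ways. Tjp1 was at 211, 154 and 159.5 CPM in controls and at 260.5, 259 and 224 CPM after Folfiri (log2 fold change 0.50, SE 0.118, edgeR adjusted p = 0.00238). Control replicate 1 was the highest control and came within a small distance of the lowest Folfiri sample. Tjp3 fell from 118, 124 and 126 CPM to 57.6, 57.7 and 63.9 CPM (log2 fold change -1.04, SE 0.0727, edgeR adjusted p = 3.66e-07). The Tjp3 groups were wide apart, in the direction opposite to Tjp1. F11r, which encodes the junctional adhesion molecule JAM-A, fell from 221, 285 and 267 CPM to 168, 172 and 169.8 CPM (log2 fold change -0.60, SE 0.0930, edgeR adjusted p = 0.000132). The controls of F11r were spread more widely than the Folfiri samples, with replicate 1 lowest, yet the groups did not overlap.

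Per kilobase of exonic length, a scale on which genes can be set beside each other, the summed level of these 9 genes was 228 to 241 CPM per kb in controls and 239 to 249 CPM per kb after Folfiri. The make-up of this sum changed. F11r gave 41.0 ± 4.17% of it in controls and 26.2 ± 0.422% after Folfiri (SD, n = 3), and Tjp3 14.0 ± 0.216% and 6.62 ± 0.513%. Cgn went from 7.16 ± 0.415% to 15.0 ± 0.576% and Ocln from 3.77 ± 0.176% to 9.34 ± 0.456%. These shares do not depend on library scaling, whereas the sum does. The TMM factors were 0.880 to 0.966 in controls and 1.10 to 1.11 after Folfiri. With total counts only, the sum would therefore stand higher after Folfiri relative to controls. Sums of the other junction types below shift in the same way.

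Of the 10 claudins tested, 3 rose, 5 fell and 2 missed the threshold, with a median log2 fold change of -0.20. Cldn3, Cldn4 and Cldn7 are barrier-forming claudins common in the intestine, and on the scale of CPM per kb they were the most abundant members of the family in both groups. Cldn4 (ENSMUSG00000047501) and Cldn3 (ENSMUSG00000070473) lie side by side on GRCm38 chromosome 5, at 134945119 to 134946934 on the minus strand and at 134986214 to 134987472 on the plus strand, and they moved in opposite directions. The 250 bases before each start, from RefSeq on GRCm38.p6, are shown because these neighbours point away from each other and share no promoter window. Capitals mark matches to the AP-1 motif TGANTCA or the E-box CACCTG, which were searched on both strands along with the TEAD motif GGAATG. The matches shown do not overlap each other, and a match is a description of letters only.
Cldn4, chr5:134946935-134947184, minus strand: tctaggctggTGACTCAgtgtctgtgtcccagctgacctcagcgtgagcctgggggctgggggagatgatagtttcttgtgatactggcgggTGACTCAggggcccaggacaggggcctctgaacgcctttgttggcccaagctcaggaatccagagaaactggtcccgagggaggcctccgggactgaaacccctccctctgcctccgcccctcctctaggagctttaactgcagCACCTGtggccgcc
Cldn3, chr5:134985964-134986213, plus strand: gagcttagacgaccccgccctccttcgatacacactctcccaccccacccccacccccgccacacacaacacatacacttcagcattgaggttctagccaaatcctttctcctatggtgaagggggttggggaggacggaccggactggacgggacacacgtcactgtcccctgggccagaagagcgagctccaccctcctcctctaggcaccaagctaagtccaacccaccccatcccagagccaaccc
The Cldn4 window held 2 AP-1 matches and 1 E-box match and the Cldn3 window held no match to any of the 3 motifs.

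Cldn4 was at 176, 207 and 184 CPM in controls and at 288, 296 and 341 CPM after Folfiri. The groups were clearly apart, with means of 189 ± 16.3 and 308 ± 28.2 CPM (SD, n = 3), a 1.63-fold difference (log2 fold change 0.71, SE 0.0910, edgeR adjusted p = 3.39e-05). Cldn3 was at 255, 297 and 292 CPM in controls and at 173, 171 and 199 CPM after Folfiri (log2 fold change -0.63, SE 0.0893, edgeR adjusted p = 6.52e-05). Cldn7 fell from 246, 308 and 299 CPM to 162, 171 and 174 CPM (log2 fold change -0.75, SE 0.0916, edgeR adjusted p = 2.25e-05). For both, all controls lay above all Folfiri samples, and control replicate 1 was the lowest control. As a share of the summed CPM per kb of all listed claudins, Cldn4 took 18.8 to 20.3% in the controls and 37.4 to 38.9% after Folfiri. Cldn3 took 42.0 to 43.0% and then 31.5 to 32.9%, and Cldn7 took 26.4 to 28.5% and then 18.6 to 20.4%. The replicates were close together in these shares, and Cldn4 replaced Cldn3 as the most abundant claudin transcript per kb in all 3 Folfiri samples. The sum itself was 479 to 562 CPM per kb in controls and 425 to 482 CPM per kb after Folfiri with TMM. These ranges overlap, and total counts only would move the sum up after Folfiri relative to controls, so its direction depends on the scaling.

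**Figure D3:**
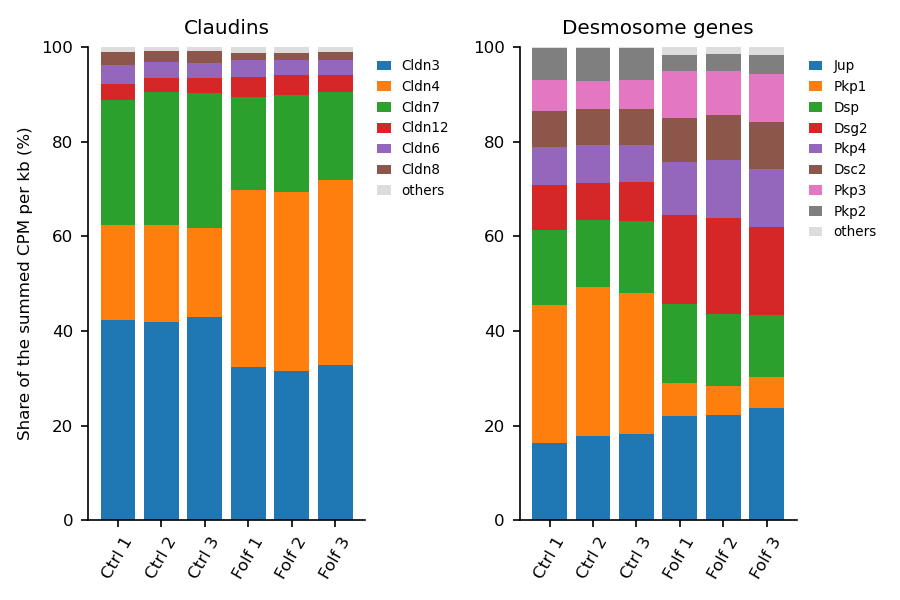
Share of each gene in the summed CPM per kb of the listed claudins and desmosome genes, as stacked bars in percent, with 1 bar per sample (Ctrl, control; Folf, Folfiri; grey, all others). Cldn4 and Dsg2 take larger shares in the 3 Folfiri samples and Cldn3 and Pkp1 smaller ones.

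The pore-forming claudins Cldn2 and Cldn15 were rare here. Cldn2, which forms a cation and water pore typical of leaky epithelia and crypts, fell most, from 2.77, 2.04 and 2.16 CPM to 0.235, 0.290 and 0.243 CPM. The mean in controls was 9.08 times that after Folfiri (log2 fold change -3.17, SE 0.256, edgeR adjusted p = 9.80e-07), and the groups were far apart. Cldn15, another cation pore claudin of the intestine, rose from 0.252, 0.160 and 0.154 CPM to 0.805, 1.0 and 1.09 CPM (log2 fold change 2.30, SE 0.323, edgeR adjusted p = 6.47e-05). Cldn2 and Cldn15 were both under 3 CPM in every sample, and they moved in opposite directions. Cldn8, which seals against sodium leak in the colon, fell from 30.6, 30.4 and 32.9 CPM to 16.3, 16.1 and 17.0 CPM (log2 fold change -0.93, SE 0.0818, edgeR adjusted p = 1.92e-06). Cldn6, known from embryonic epithelia, was at 32.2, 33.2 and 29.7 CPM and then at 26.2, 23.9 and 26.6 CPM (log2 fold change -0.31, edgeR adjusted p = 0.00574). This call rested on the scaling, since with total counts only the value was -0.04 and missed the threshold. Cldn9, which lies next to Cldn6 on GRCm38 chromosome 17, was at 5.08, 4.96 and 4.42 CPM and at 4.46, 4.29 and 4.79 CPM (log2 fold change -0.10, edgeR adjusted p = 0.506). Its groups overlapped and its sign turned with total counts only, to 0.17. Cldn23 was at 0.972, 1.08 and 0.720 CPM in controls and at 1.78, 1.29 and 1.67 CPM after Folfiri (log2 fold change 0.75, edgeR adjusted p = 0.0112). Cldn12 was at 68.4, 68.0 and 71.1 CPM and at 75.1, 77.2 and 75.7 CPM, without overlap but short of the threshold (log2 fold change 0.14, edgeR adjusted p = 0.0777). It passed with total counts only at 0.41 and with upper quartile scaling at 0.19.

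A further 9 claudins were listed with counts under the filter for the test. Cldn1 had no count in any control and 14 counts over the Folfiri samples. Set against a floor of 3 counts for the empty group, this was 3.59-fold higher. Ratios against this floor take the other group's count as it stands, have no interval and are not lower bounds. Cldn18, a claudin of stomach and lung, had no count in controls and 8 after Folfiri, 2.05-fold the floor. Cldn10 went the other way, with 11 counts in controls and none after Folfiri, 4.76-fold the floor. Cldn24 had 0 counts in controls and 4 after Folfiri, only 1.03-fold the floor, and Cldn14 had 1 count in all. Cldn19 had 1 and 8 counts, a ratio of 6.16 with a 95% counting interval of 0.826 to 273. Cldn11, Cldn17 and Cldn20 also had counts in both groups.

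Of the 4 adherens junction genes, Cdh1 rose slightly, Ctnnd1 fell, and Ctnna1 and Ctnnb1 missed the threshold, with a median log2 fold change of 0.02. Cdh1 (ENSMUSG00000000303, GRCm38 chromosome 8, 106603351 to 106670246) encodes E-cadherin, the main adhesion receptor of epithelia. Its level was 651, 700.4 and 687 CPM in controls and 788, 830.1 and 739 CPM after Folfiri. The groups did not overlap, and the means of 679 ± 25.8 and 786 ± 45.7 CPM (SD, n = 3) were 1.16-fold apart (log2 fold change 0.21, SE 0.0815, edgeR adjusted p = 0.0350). The call was lost without control replicate 2 or 3 or Folfiri replicate 1 or 2, and without the filter on low counts. The value of Cdh1 stayed between 0.17 and 0.25 whichever replicate was left out. Its size depended on the scaling, at 0.49 with total counts only and 0.27 with upper quartile scaling, both called. Ctnna1 and Ctnnb1 encode the alpha and beta catenins that tie E-cadherin to actin, beta-catenin being also the effector of Wnt signalling. Ctnna1 was at 761, 743 and 748 CPM and at 743, 734 and 709 CPM (log2 fold change -0.04, SE 0.0746, edgeR adjusted p = 0.608). Its sign depended on the scaling, at 0.23 and called higher with total counts only and at 0.01 with upper quartile scaling. Ctnnb1 was at 593, 603 and 613 CPM and at 639, 645 and 633 CPM, without overlap (log2 fold change 0.08, SE 0.0722, edgeR adjusted p = 0.304). With total counts only it was called at 0.36, and 14.6% of its exonic bases lie opposite those of Ulk4, which matters if the counting ignored strand. Ctnnd1, which encodes p120-catenin, a protein that keeps E-cadherin at the membrane, was at 61.8, 76.3 and 69.2 CPM and then at 47.0, 45.9 and 39.6 CPM. All Folfiri samples were below all controls (log2 fold change -0.65, SE 0.0987, edgeR adjusted p = 0.000122). The level of Ctnnd1 is uncertain because 61.2% of its exonic bases are shared with the annotated gene Gm28635 on the same strand.

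Epcam (ENSMUSG00000045394, GRCm38 chromosome 17, 87635979 to 87651129) encodes an epithelial surface protein that binds and stabilizes claudins and is a usual label of colorectal tumor cells. It was at 1085, 1338 and 1332 CPM in controls and at 666, 654 and 638 CPM after Folfiri. Every control was above every Folfiri sample, and the mean in controls was 1.92 times that after Folfiri (log2 fold change -0.94, SE 0.0989, edgeR adjusted p = 7.17e-06). Control replicate 1 was the lowest control. Of the genes listed with it, the membrane proteases and inhibitors known to act on Epcam or its partners were split. St14 fell by 0.78 and Spint2 fell by 0.53 on the log2 scale, and Spint1 rose by 0.30.

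**Figure D4:**
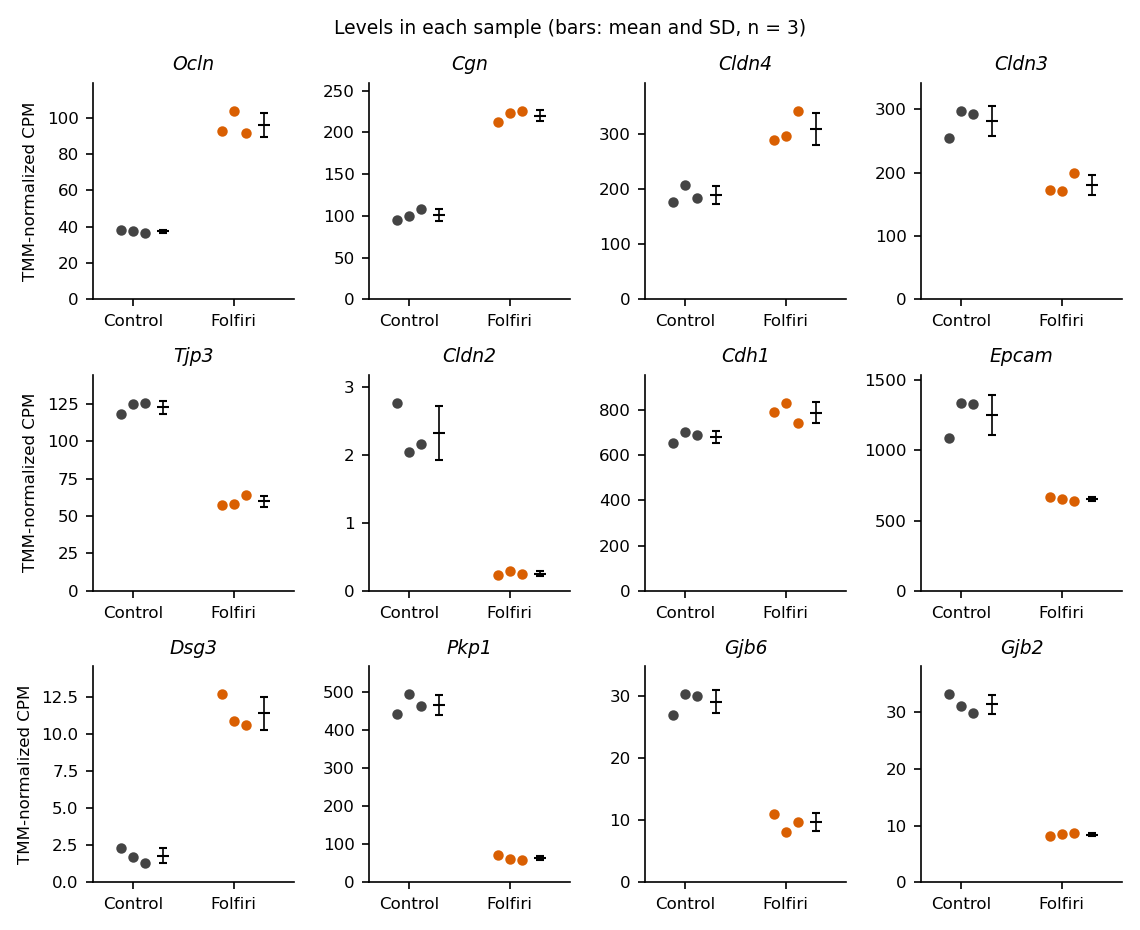
TMM-normalized CPM in each of the 3 control (grey) and 3 Folfiri (orange) samples for 12 junction genes, with the mean and SD of each group beside the points. All vertical axes start at 0, and in each panel the control and Folfiri points do not overlap, by a small distance for Cdh1 and by a wide one for Ocln, Cgn, Pkp1 and Gjb2.

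Of the 11 desmosome genes tested, 4 rose, 5 fell and 2 missed the threshold. The 4 that rose were the desmogleins tested, and the 5 that fell were the desmocollin gene Dsc2 and the plaque genes Pkp1, Pkp2, Dsp and Jup, of which Dsc2 and Jup missed the threshold with total counts only. Desmogleins are desmosomal cadherins. Dsg2 is the one of simple epithelia such as the intestine, and Dsg1 and Dsg3 genes are best known from stratified epithelia. Dsg2 was at 232, 201 and 209 CPM in controls and at 315, 326 and 277 CPM after Folfiri (log2 fold change 0.52, SE 0.0875, edgeR adjusted p = 0.000259). Dsg3 (ENSMUSG00000056632) rose from 2.34, 1.72 and 1.34 CPM to 12.7, 10.9 and 10.6 CPM. The means of 1.80 ± 0.507 and 11.4 ± 1.12 CPM (SD, n = 3) were 6.35-fold apart (log2 fold change 2.63, SE 0.182, edgeR adjusted p = 3.32e-07). Dsg4, known from hair follicles, rose from 0.540, 0.400 and 0.309 CPM to 4.59, 3.91 and 3.43 CPM (log2 fold change 3.20, SE 0.241, edgeR adjusted p = 5.99e-07). The groups did not overlap in any of the 3 genes, with wide gaps for Dsg3 and Dsg4 and a narrower one for Dsg2. Dsg1b had 1, 1 and 0 counts in controls and 19, 22 and 30 after Folfiri, a ratio of 27.3 after library scaling with a 95% counting interval of 7.3 to 230.0 (edgeR adjusted p = 1.59e-05). Its near copy Dsg1a, which was not tested, had 1 count over the controls and 36 over the Folfiri samples, a ratio of 27.7 with an interval of 4.67 to 1130.0, and reads may be split between such copies. Dsg1c, Dsc1 and Dsc3 were listed with counts too low to be tested. The desmogleins are neighbours in 1 gene cluster, beside which Dsc2, the desmocollin of simple epithelia, was lower, at 120.0, 126 and 125 CPM and then at 99.2, 100.4 and 93.7 CPM (log2 fold change -0.34, edgeR adjusted p = 0.000698). With total counts only, Dsc2 was at -0.06 and missed the threshold.

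Squamous markers were measured beside the desmogleins, since Dsg1 and Dsg3 are made in stratified epithelia. The summed level of Krt1, Krt5, Krt6a, Krt10, Krt13, Krt14 and Trp63 was 19.4 to 21.9 CPM in controls and 27.0 to 28.7 CPM after Folfiri. Of the 6 tested, Krt5 and Krt6a rose, with log2 fold changes of 2.02 and 1.25, and Krt1 and Krt13 fell, with -2.72 and -1.25. Trp63, which defines squamous basal cells, had no count in the controls and 7, 3 and 6 counts after Folfiri. The part of these cells in the desmoglein values was not tested.

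Of the tested plaque genes of desmosomes, Pkp1 and Pkp2 fell most. Pkp1 (ENSMUSG00000026413, GRCm38 chromosome 1, 135871395 to 135919207) encodes plakophilin 1, which clusters desmosomal cadherins and strengthens adhesion. It fell from 441, 494 and 462 CPM to 70.8, 61 and 59.9 CPM. Its mean in controls was 7.29 times that after Folfiri (log2 fold change -2.87, SE 0.0913, edgeR adjusted p = 3.17e-09), with the groups far apart. Pkp2, the plakophilin of simple epithelia and heart, fell from 109, 117 and 115 CPM to 36.8, 37.9 and 39.3 CPM (log2 fold change -1.58, SE 0.0708, edgeR adjusted p = 1.98e-08). The other plakophilins overlapped between groups. Pkp3 was at 72.3, 68.5 and 67.2 CPM and at 72.0, 64.5 and 66.6 CPM (log2 fold change -0.03, edgeR adjusted p = 0.677). Pkp4 was at 139, 142 and 136 CPM and at 130.1, 137 and 125 CPM (log2 fold change -0.09, edgeR adjusted p = 0.237). With total counts only both turned, to 0.24 and 0.19, and passed the threshold. Dsp encodes desmoplakin, the link to keratin, and fell from 465, 427 and 454 CPM to 326, 288 and 226 CPM (log2 fold change -0.68, SE 0.119, edgeR adjusted p = 0.000316). Folfiri replicate 3 was lowest, and all Folfiri samples were under all controls. Jup encodes plakoglobin, shared by desmosomes and adherens junctions, and was at 314, 358 and 359.8 CPM and then at 285, 281 and 273 CPM (log2 fold change -0.30, edgeR adjusted p = 0.00438). The Jup value was -0.02 and missed the threshold with total counts only.

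On the scale of CPM per kb, the summed desmosome genes went from 301 to 312 in controls to 179 to 202 after Folfiri. Pkp1 was the largest contributor in controls at 29.2 to 31.5% and gave 6.19 to 6.98% after Folfiri. Dsg2 went from 7.77 to 9.34% of the sum to 18.7 to 20.1%, and Jup, at 21.9 to 23.6%, was then the largest contributor.

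Connexin genes had the largest median absolute log2 fold change of the junction types, at 1.52 beside 0.73 for all genes, and they went both ways. Many of them were at low levels, and the 2 medians were not matched for level. Desmosome genes had a wider range, from -2.87 to 4.56 against -1.89 to 3.45 for connexins. Of the 12 tested, 4 rose, 5 fell and 3 missed the threshold. Gjb2 and Gjb6 encode a pair of connexins that often share channels, for example in the inner ear, and are neighbours on the minus strand of GRCm38 chromosome 14, at 57098600 to 57104702 and 57123303 to 57133611. Both fell. Gjb2 was at 33.2, 31.1 and 29.9 CPM in controls and at 8.18, 8.49 and 8.68 CPM after Folfiri, and its mean in controls was 3.72 times that after Folfiri (log2 fold change -1.89, SE 0.0901, edgeR adjusted p = 2.91e-08). Gjb6 was at 27.0, 30.2 and 30 CPM and then at 11.1, 8.17 and 9.68 CPM (log2 fold change -1.59, SE 0.118, edgeR adjusted p = 5.41e-07). In both genes the groups lay far apart. The third gene of this cluster, the lens connexin gene Gja3, was at 0.540, 0.60 and 0.617 CPM and at 0.503, 0.807 and 0.698 CPM, with overlap (log2 fold change 0.20, edgeR adjusted p = 0.508). The 250 bases before the starts of Gjb2 and Gjb6 are shown as those of neighbours that fell together, with capitals for motif matches as above.
Gjb2, chr14:57104703-57104952, minus strand: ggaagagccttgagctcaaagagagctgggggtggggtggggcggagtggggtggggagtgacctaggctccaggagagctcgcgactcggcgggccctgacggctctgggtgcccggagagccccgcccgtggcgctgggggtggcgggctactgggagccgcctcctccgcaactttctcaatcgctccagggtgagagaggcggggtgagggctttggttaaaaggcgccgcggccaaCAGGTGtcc
Gjb6, chr14:57133612-57133861, minus strand: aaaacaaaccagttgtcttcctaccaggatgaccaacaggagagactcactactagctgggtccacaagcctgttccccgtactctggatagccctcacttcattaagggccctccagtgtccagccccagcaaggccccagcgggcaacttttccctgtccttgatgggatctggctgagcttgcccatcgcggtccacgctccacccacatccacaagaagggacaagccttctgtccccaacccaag
The match in the Gjb2 window is an E-box read on the other strand, and the Gjb6 window held no match.

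Gjb5 (GRCm38 chromosome 4, 127354809 to 127358181, minus strand) encodes a connexin best known from skin. It fell from 4.83, 2.84 and 2.67 CPM to 1.51, 0.871 and 1.52 CPM (log2 fold change -1.42, SE 0.282, edgeR adjusted p = 0.000776). Control replicate 1 was the highest control, and the groups did not overlap. Gja4 was listed with too few counts to be tested. In CPM per kb the connexins summed to 33.2 to 38.0 in controls and 31.4 to 32.7 after Folfiri with TMM. The direction of this small difference depends on the scaling, since total counts only would move the sum up after Folfiri relative to controls. Gjb2 and Gjb6 together made up the larger part of this sum in controls, at 37.1 ± 0.715% and 31.1 ± 3.95% (SD, n = 3), and took 11 ± 0.327% and 11.2 ± 1.59% after Folfiri.

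The following connexin genes were at low levels. Gja5, a connexin of arteries and atria, rose from 2.38, 1.6 and 1.08 CPM to 5.53, 5.55 and 5.46 CPM (log2 fold change 1.67, SE 0.218, edgeR adjusted p = 3.69e-05). Gjb1, the liver connexin gene, fell from 1.37, 1.32 and 1.59 CPM to 0.704, 0.484 and 0.667 CPM (log2 fold change -1.19, edgeR adjusted p = 0.000675). Gjc1 rose from 2, 2 and 0 counts to 20, 22 and 19 counts (log2 fold change 3.45, SE 0.492, edgeR adjusted p = 7.16e-05). In each of these 3 genes the groups were apart. Gja1, the most widely expressed connexin gene of the body, was at only 0.432, 0.200 and 0.309 CPM in controls and at 0.570, 0.549 and 0.455 CPM after Folfiri (log2 fold change 0.71, SE 0.339, edgeR adjusted p = 0.0755). Without control replicate 1 its value was 1.06 and was called, as was 0.98 with total counts only. Gja6 was at 0.432, 0.640 and 0.360 CPM and at 0.436, 0.516 and 0.576 CPM, with overlap (log2 fold change 0.08, edgeR adjusted p = 0.824), and its sign turned without control replicate 1, control replicate 3 or Folfiri replicate 3. Gjc3 had too few counts to be tested, with 1 count in each group.

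Some of these genes are also made by vessels, so endothelial markers were measured. Pecam1, Cdh5, Kdr, Tie1, Tek, Egfl7 and Esam summed to 79.3 to 131 CPM in controls and 69.9 to 80.2 CPM after Folfiri. Nearly all of this was Cdh5, at 124, 73.4 and 71.8 CPM in controls and at 71.2, 75.7 and 64.9 CPM after Folfiri. Its groups overlapped, with control replicate 1 alone far above the rest, and it missed the threshold (log2 fold change -0.35, edgeR adjusted p = 0.0967). Egfl7 was at 6.22 and 3.33 CPM on average and Pecam1 at 0.470 and 0.459 CPM. Kdr had no count in controls and 3, 0 and 4 counts after Folfiri. Of the 4 tested, Esam rose and Egfl7 fell. The part of endothelial RNA in the connexin and claudin values was not tested. Fibroblast markers summed to 1.08 to 1.44 CPM in controls and 2.06 to 2.45 CPM after Folfiri, immune markers to 0.514 to 0.612 and 1.40 to 1.58 CPM, and glial markers to 0.576 to 0.960 and 0.710 to 0.805 CPM.

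The 3 motifs were counted over the members with a RefSeq promoter entry, 28 of the 47 tested. A gene was counted when any of its windows held a match, so Ocln, with 2 starts in the table, counts for a match at either. AP-1 matches were held by 2 of 8 members that rose (Cldn4 and Cldn15), 1 of 14 that fell (F11r) and 1 of 6 others (Gja1), against 7.82% of all 27025 genes and 6.75% of all 32851 windows of this length. TEAD matches were held by 2 of 8, 3 of 14 and 0 of 6, against 14.4% of genes and 12.6% of windows. E-box matches were held by 2 of 8 (Cldn4 and Ocln), 7 of 14 and 2 of 6, against 19.4% of genes and 17.2% of windows. The 7 that fell were Cldn6, Cldn7, Epcam, F11r, Gjb1, Gjb2 and Tjp3. These counts are small and were not tested.

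Other genes of the same structures were tested for 38 of 42 symbols chosen. Of these, 13 were higher, 14 lower and 11 not called, with a median log2 fold change of -0.07. Over all tested genes, 40.3% were called higher and 38.8% lower, so movement both ways was not particular to this list. Among tight junction polarity and scaffold genes, Mpdz, Tjap1 and Prkci rose most (log2 fold changes 1.26, 1.02 and 0.88), and Magi1, Crb3 and Mpp5 fell most (-1.69, -1.04 and -0.85). These include the apical polarity genes Crb3 and Mpp5, whose proteins bind each other. Among adherens junction genes, 5 rose and 6 fell of 13. Ajuba, which encodes a LIM protein recruited to tense junctions, rose from 37.6 to 113 CPM on average (1.59). The nectin genes Nectin4, Nectin1 and Nectin2 fell (-1.22, -1.01 and -0.75), as did Afdn, which encodes their actin linker (-0.60), and Cdh17, the intestinal cadherin gene (706 to 354 CPM on average, -1.0). Cdh3, which encodes P-cadherin, was rare but rose, from 0.104 to 0.383 CPM (1.76). Of the other desmosome genes Perp fell (-0.45), while Ppl and Evpl had values of 0.07 and 0.12 and missed the threshold. Panx1, which forms channels related to gap junctions, rose from 6.41 to 13.7 CPM on average (1.08).

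Transcription factors known to act on junction genes were measured too, 15 tested of 17, with 5 higher, 8 lower and 2 not called. Their median log2 fold change was -0.26, beside 0.02 for all tested genes, of which 40.3% were called higher and 38.8% lower. The list is short, and its difference from all genes was not tested. The intestinal factors Hnf4a and Cdx2 fell (log2 fold changes -2.59 and -1.53), Cdx2 from 157 to 54.5 CPM on average, and so did the epithelial factors Elf3 (508 to 205 CPM, -1.31), Grhl3 (-1.28), Klf5 (-0.66) and Klf4 (-0.51). The related Grhl1 rose from 6.64 to 23.3 CPM (1.80) and Ovol2 from 3.39 to 9.70 CPM (1.54). Grhl2 was at 67.9 and 61.3 CPM and missed the threshold (-0.15, edgeR adjusted p = 0.0719). Known repressors of Cdh1 differed in level and direction. Twist1 fell from 80.6 to 42.5 CPM on average (-0.92). Zeb1, which was rare, rose from 0.137 to 0.843 CPM (2.44), Zeb2 from 0.0905 to 0.536 CPM (2.41) and Snai1 from 0.974 to 1.77 CPM (0.88), while Snai2 had at most 2 counts in any sample.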

How the data were processed

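RNA of 3 control and 3 Folfiri samples of parental MTO54 organoids was compared, grouped by the labels. The authors aligned reads with STAR (2.5.2 in the submitters' processing notes) to GRCm38 with GENCODE vM25 annotation, used Rsubread to count reads per gene, and deposited these raw counts, which are not normalized. The strand setting and the treatment of reads with several positions are not given in the sources used here. All 6 columns of counts were used.

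From these counts, genes were filtered by edgeR 4.0.16 (R 4.3.3) at default settings, TMM-normalized and tested with the quasi-likelihood test, Benjamini-Hochberg adjustment and a threshold of 0.05. Symbols, positions and exonic lengths came from GENCODE vM21 on the same build, in which 24168 of 24190 identifiers were found. CPM per kb divides CPM by exonic length. The procedure was tested on simulated data. Ratios of genes with up to 3 counts in a group, but not 0, have exact 95% intervals, which cover counting error only. Where a group had no count, it was set at a floor of 3 counts and the ratio has no interval.

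The members and lists were chosen with earlier results of these data known. Values in every sample were given for genes that the selection names singly, the Tjp genes, the up to 5 called members per direction and junction type with the largest change, and members that missed the threshold, which left out Marveld1 alone, added after its values were seen. Of other junction genes and regulators, the up to 3 per direction and list with the largest change were named, and further ones after their values were seen. Results for some genes that these rules cover are not reported here, although counts and medians include them. Alternatives were other scalings and filters, DESeq2 1.42.0, the replicate number as a block and each replicate left out.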

Additional observations from a re-analysis of the deposited data

How the results depend on the processing

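With scaling by total counts only, 25 members were higher and 16 lower (61% of calls higher, against 48.6% with TMM, and 63.3% against 51.0% over all genes), and the members' median was 0.35, which lay 0.05 above the median of all genes, beside 0.06 with TMM. This difference was negative in other settings, at -0.22 without a filter and with DESeq2, -0.076 with at least 1 CPM in 3 samples, and -0.046, -0.078 and -0.037 without control replicate 1, control replicate 3 and Folfiri replicate 3. The reversed values under that scaling were 0.17 for Cldn9, 0.23 for Ctnna1, 0.24 for Pkp3 and 0.19 for Pkp4, and under upper quartile scaling, where the members' median was 0.13, 0.012 for Ctnna1 and 0.021 for Pkp3. With a filter of at least 1 CPM in 3 samples the median was -0.058 over the 40 members left. Leaving out each replicate in turn gave 16 to 21 members higher, 19 lower in every case, a median of -0.055 to 0.072 and 11021 to 12312 genes called, with Gja6 between -0.065 and 0.34 and Pkp3 between -0.078 and 0.0057. Where this leaves 2 samples in a group, the spread is pooled over all 5. Other filters and tests called 10630 to 12742 genes, with 21 members higher and 20 lower of 63 by DESeq2's Wald test. Replicate numbers did not pair the samples, since same-numbered samples correlated at 0.027, -0.117 and 0.039 in their deviations. The replicate block gave 17 members higher and 19 lower, losing Cdh1 (edgeR adjusted p = 0.0670), and changed no other call among the members. Among the alternative values of named genes, 566 kept direction and side of the threshold, 10 changed sign, 9 gained a call, 3 of them with a change of sign, and 9 lost a call, and the cause was not tested. The 16 listed members under the filter on low counts were tested only without it and by DESeq2, and Cldn11, Dsg1a and Gja4 also in some runs without 1 replicate.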
